A study of Mus musculus with 30 samples.

Results

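The comparison described here was between Nr6a1-/- and wildtype mouse embryonic stem cells (ESCs) 12 h after Wnt signalling was activated, and its members were 6 of the 30 RNAseq libraries of the series, 3 per genotype, chosen by the sample labels alone. Both groups were Bruce4 ESCs differentiating towards neuromesodermal progenitors (NMPs). Both received FGF2 from d0 and the agonist CHIR99021 (CHIR) from d2, and both were collected at d2.5. The Nr6a1-/- cells were a single clone, B1, with independent CRISPR/Cas9 deletions in exon 4 of each allele, which removed sequence for the DNA-binding domain. Genotype and cell line therefore cannot be told apart in any value below. Expression was described across all genes tested, with genes of chromosome 8 kept separate from the rest. Libraries at d2, just before CHIR, and at d3, 24 h after it, were used to ask whether a difference was specific in time, and all 30 libraries set the filter and the dispersion of the fit (784 calls at d2.5, or 766 with the 6 libraries fitted alone).

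Nr6a1 (germ cell nuclear factor) is an orphan nuclear receptor that binds DNA at direct repeats of a hormone response element and is best known for repressing pluripotency genes as the embryo gastrulates. CHIR inhibits the kinase GSK3, so that β-catenin accumulates and, with TCF/LEF factors, activates target genes such as Axin2 and Sp5. In cells exposed to FGF this step starts the passage from epiblast to NMPs, posterior progenitors of spinal cord and paraxial mesoderm that switch on Cdx and Hox genes in sequence.

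The wildtype libraries held 2081982, 1935182 and 1952516 counts and the Nr6a1-/- libraries 2612446, 2801158 and 2761996, so that the Nr6a1-/- group was the deeper. Levels are given as CPM, the counts relative to a library total scaled by a TMM factor, and listed for replicates 1, 2 and 3, unless stated otherwise. A fold change is the Nr6a1-/- level over the wildtype level on a log2 scale, with its standard error (SE). A gene was called when its FDR, the Benjamini-Hochberg adjusted p of edgeR's quasi-likelihood test over 12149 genes, was below 0.05. The labels do not say that replicates were separate cultures, so p-values measure the spread between these libraries only. That spread was wider among the wildtype libraries, where replicates 2 and 3 differed by a chi-square of 4.61 per gene against 1.68 to 1.85 between the Nr6a1-/- libraries. CT010467.1, a ribosomal RNA gene, had 27210.0, 27596 and 17100.0 CPM in the wildtype libraries and 16279, 13277 and 12995 CPM in the Nr6a1-/- libraries (log2 fold change -0.76 ± 0.16, FDR = 0.00226). Of 26 small nucleolar RNAs tested 6 were called, each lower, and their median log2 fold change was -0.86, and the part of these RNAs in other results was not tested.

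Nr6a1 itself did not pass the test in cells that carry its deletions. Its level was 102, 88.8 and 101 CPM in the wildtype libraries and 109, 114 and 110.1 CPM in the Nr6a1-/- libraries (log2 fold change 0.19 ± 0.12, FDR = 0.392). The 3 Nr6a1-/- libraries lay just above the 3 wildtype libraries. The reads come from 3′ ends, far from exon 4, so the level of this gene (chr2:38723370-38927688, minus strand, GRCm38) does not check the genotype. The antisense gene Nr6a1os stayed near 1 CPM and did not pass the test either (log2 fold change 0.82, FDR = 0.614).

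After 12 h of CHIR, Nr6a1-/- cells held more RNA of several Wnt-response, primitive streak and FGF-feedback genes and less RNA of several endoderm and basement membrane genes, and most genes of chromosome 8 lay below their wildtype level. In all, 784 of 12149 genes (6.45%) were called, 348 higher (2.86%) and 436 lower (3.59%). Chromosome 8 held 5.39% of the genes tested and 42.0% of the lower calls. Outside it 342 genes were higher (3.01%) and 249 lower (2.19%) among 11372, so that 57.9% of these calls were higher. That share depended on the processing. It was 51.3% of 569 calls with TMM factors from genes outside chromosome 8, and 69.5% of 682 calls without a filter on low counts. On chromosome 8 itself 3 genes were higher (0.458%) and 183 lower (27.9%) among 655, and 7 further calls had no position in the annotation. The 3 libraries of one genotype lay wholly beyond the 3 of the other for 23.7% of genes outside chromosome 8 and for 51.8% of genes on it. Differences outside chromosome 8 were of 2-fold or more for 68 of the genes that rose and 97 of those that fell. The 591 calls outside chromosome 8 became 345, 360, 350 and 387 without wildtype replicate 1, wildtype replicate 2, Nr6a1-/- replicate 1 and Nr6a1-/- replicate 3 in turn, and the 784 calls in all became 478, 492 and 497 without the first 3 of these. Without wildtype replicate 3 they were 609 and 775.

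**Figure D1:**
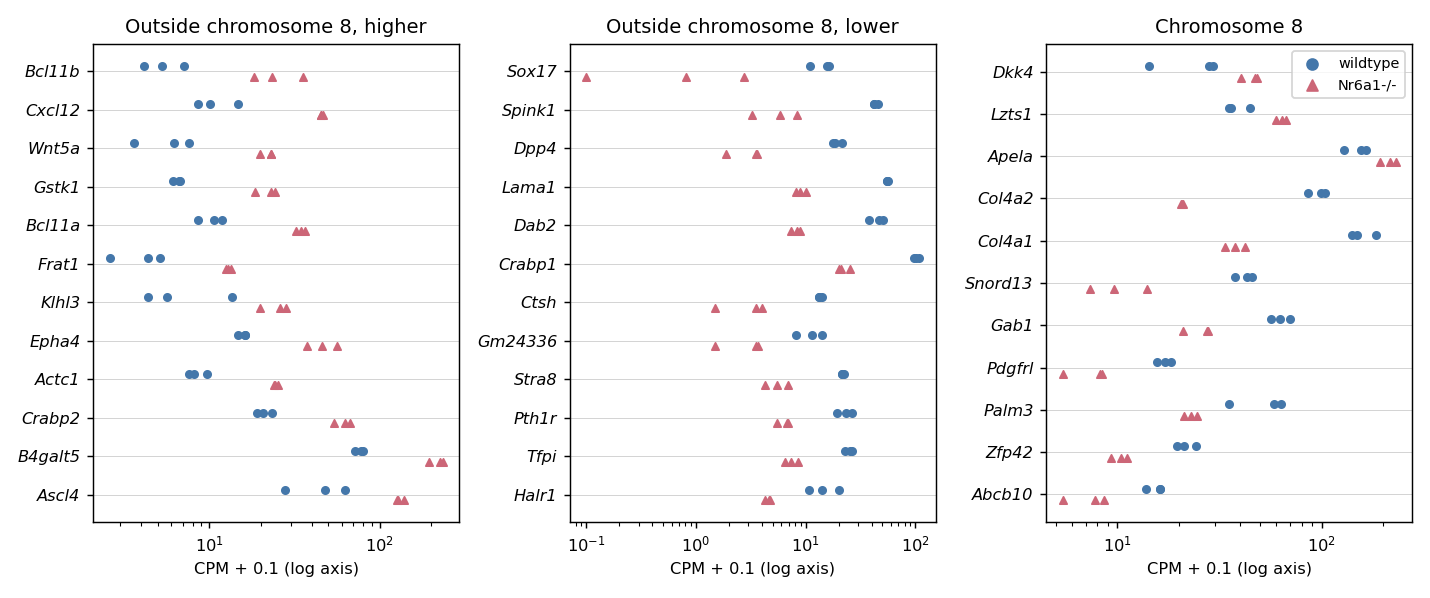
Levels of the leading genes in each of the 6 libraries at d2.5, with 1 row per gene, CPM plus 0.1 on a log axis, circles for wildtype and triangles for Nr6a1-/-. Genes were named by the size of their called difference, with separation of all 3 libraries of each genotype as part of the rule. Sox17 in Nr6a1-/- replicate 2 sits at 0 CPM, and Ascl4 and Klhl3 show the wide spread of the wildtype libraries.

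Along chromosome 8, 183 genes fell, and the type IV collagens stood out among them. Col4a1 and Col4a2, the chains of the main collagen of basement membranes, lie head to head and their annotated transcripts overlap by a few bases at chr8:11198423-11312826 (minus strand) and chr8:11312805-11449287 (plus strand). Col4a1 had 185, 148 and 141 CPM in the wildtype libraries and 37.7, 33.7 and 42.3 CPM in the Nr6a1-/- libraries, 4.17-fold lower (log2 fold change -2.06 ± 0.14, FDR = 2.08e-13). Col4a2 had 98.8, 104 and 85.4 CPM in the wildtype libraries and 20.6, 20.5 and 20.95 CPM in the Nr6a1-/- libraries, 4.64-fold lower (log2 fold change -2.21 ± 0.18, FDR = 2.46e-11). In both genes every Nr6a1-/- library was far below the lowest wildtype library, separation being part of the rule that named them. The other large falls were of Snord13, a small nucleolar RNA, with 43.0, 45.4 and 37.7 CPM against 9.52, 7.30 and 13.8 CPM, and of Gab1, an adaptor of receptor tyrosine kinases that is also imprinted in extraembryonic tissue, with 62.4, 56.5 and 69.8 CPM against 27.8, 27.5 and 20.95 CPM. Their log2 fold changes were -2.04 and -1.31. They were followed by Pdgfrl (-1.20), Palm3 (-1.19), the naive pluripotency marker Zfp42 (-1.08) and the mitochondrial transporter Abcb10 (-1.08). Palm3 was spread over 62.9, 58.5 and 35.2 CPM against 22.8, 21.2 and 24.5 CPM, with wildtype replicate 3 nearest to the Nr6a1-/- libraries.

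Only 3 genes of the chromosome were called higher, and 2 of them act in signalling at the streak. Dkk4, a secreted Wnt antagonist that is itself induced by Wnt, had 27.9, 14.1 and 29.1 CPM in the wildtype libraries and 48.4, 47.3 and 40.1 CPM in the Nr6a1-/- libraries (log2 fold change 0.93 ± 0.22, FDR = 0.00516). Apela, a peptide ligand of the apelin receptor that guides mesendoderm, had 156, 128 and 164 CPM in the wildtype libraries and 230.0, 215 and 194 CPM in the Nr6a1-/- libraries (log2 fold change 0.51 ± 0.15, FDR = 0.0388). Lzts1, a leucine zipper protein, had 35.0, 35.8 and 44.7 CPM in the wildtype libraries and 66.6, 59.4 and 63.6 CPM in the Nr6a1-/- libraries (log2 fold change 0.71 ± 0.18, FDR = 0.0102). The genotypes did not overlap in any of the 3. Each call was lost under some alternatives, with highest FDRs of 0.112 for Dkk4, 0.196 for Apela and 0.0726 for Lzts1, and wildtype replicate 2 was the lowest library for Dkk4 and Apela.

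The shift of chromosome 8 was modest at its median and shared by most genes. On the log2 scale 28 genes were lower by more than 1, and 18 were higher by more than 0.5. The median log2 fold change of its 655 genes was -0.38, or 0.767-fold, with an interquartile range from -0.58 to -0.16, and 84.4% were below 0. The medians of the other 18 autosomes ranged from -0.0035 to 0.046, with 43.5% to 50.9% of genes below 0. Of all counts in a library, chromosome 8 took 5.43%, 5.44% and 5.45% in wildtype and 4.19%, 4.21% and 4.21% in Nr6a1-/- cells, a ratio of 0.772. The groups were fully separate, with an exact permutation p of 0.1, two-sided, the smallest that 3 libraries against 3 can give. The ratio was 0.785 at d2 and 0.773 at d3.

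The shift ran the length of the chromosome. The median was below 0 in each of 13 bins of 10 Mb, from -0.20 in bin 4 to -0.49 in bin 11. In bins 1 to 7 the median over 230 genes was -0.30 and 42 genes were called lower. In bins 8 to 13 it was -0.41 over 425 genes, of which 141 were called lower. By level of expression the medians ranged from -0.41 to -0.32, with -0.41 for genes up to 10 CPM and -0.40 for genes above 200 CPM, whereas the share called lower rose from 4.05% to 76.5% between these classes. Abundant genes called lower included the ribosomal protein gene Rpl13 (-0.49) and the metallothionein gene Mt1 (-0.46), which were chosen for their level after their values were seen.

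**Figure D2:**
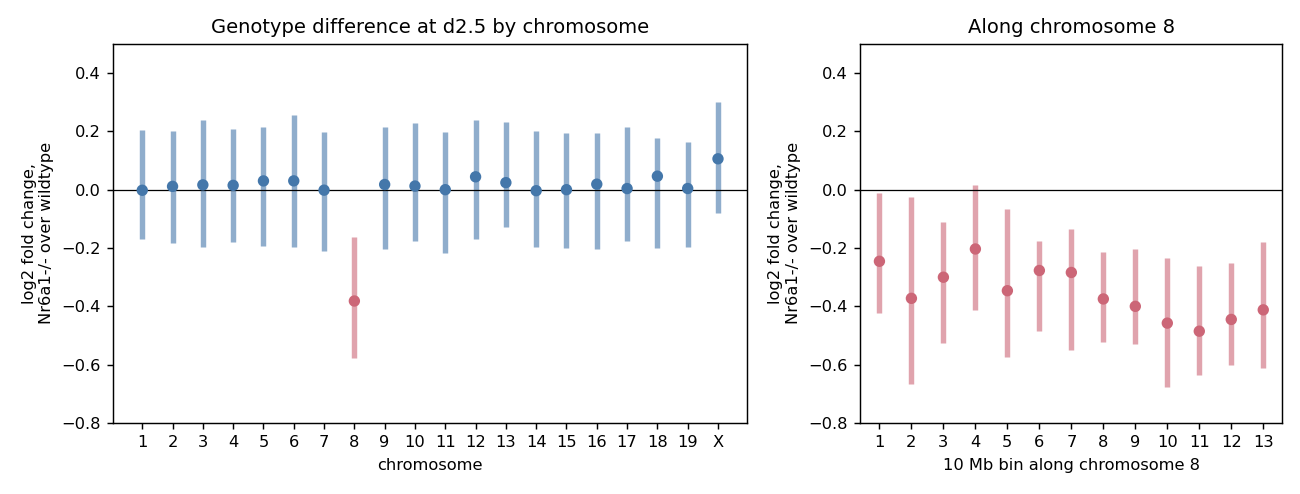
Log2 fold change of Nr6a1-/- over wildtype at d2.5 by chromosome (left) and in 10 Mb bins along chromosome 8 (right); points are medians over genes and bars span the interquartile range of genes. The median of chromosome 8 was -0.38, the X median 0.106, and the 13 bins of chromosome 8 were all below 0.

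When genes of chromosome 8 were tested against the chromosome's own median rather than against 0, 40 of 655 were called, 25 higher and 15 lower. Col4a1 (-1.68 relative to the median), Col4a2 (-1.83), Snord13 (-1.66), Gab1 (-0.93) and Palm3 (-0.81) were among the lower and Lzts1 (1.10), Dkk4 (1.31) and Apela (0.89) among the higher. Fgfr1, which encodes a receptor for FGF, was 0.61 above the chromosome's median (FDR = 0.00385), although its log2 fold change against 0 was 0.23 (FDR = 0.355).

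Outside chromosome 8 the largest rises among genes whose mean reached 10 CPM in either genotype were led by Bcl11b, Cxcl12 and Wnt5a. Bcl11b, a zinc finger repressor, had 5.20, 4.03 and 7.03 CPM in the wildtype libraries and 23.2, 35.5 and 18.1 CPM in the Nr6a1-/- libraries (log2 fold change 2.23 ± 0.35, FDR = 3.41e-05). Its paralogue Bcl11a rose as well, with 11.8, 10.6 and 8.54 CPM against 34.6, 32.3 and 36.2 CPM (log2 fold change 1.73 ± 0.30, FDR = 2.02e-04). The chemokine gene Cxcl12 had 14.7, 10.1 and 8.54 CPM in the wildtype libraries and 46.1, 45.2 and 45.1 CPM in the Nr6a1-/- libraries, 4.06-fold higher (log2 fold change 2.02 ± 0.22, FDR = 7.91e-08). These genes were low in wildtype cells. Every Nr6a1-/- library lay above every wildtype library, as the rule for naming them required. Wnt5a, a non-canonical Wnt ligand of the streak and tailbud, had 6.15, 7.57 and 3.52 CPM in the wildtype libraries and 22.8, 19.8 and 23.1 CPM in the Nr6a1-/- libraries (log2 fold change 1.92 ± 0.30, FDR = 4.48e-05). Frat1, which binds GSK3 and promotes β-catenin signalling, had 4.26, 2.52 and 5.02 CPM against 13.3, 12.5 and 12.8 CPM (log2 fold change 1.69). Epha4, an ephrin receptor of segmental boundaries, had 14.7, 16.1 and 16.1 CPM against 45.7, 37.5 and 56.1 CPM (log2 fold change 1.57).

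The other genes of this group were Ascl4, Klhl3, B4galt5, Gstk1, Actc1 and Crabp2. Ascl4, a basic helix-loop-helix factor, had 47.8, 27.7 and 62.3 CPM in the wildtype libraries and 139, 128 and 125 CPM in the Nr6a1-/- libraries (log2 fold change 1.51 ± 0.22, FDR = 1.32e-05). Klhl3, an adaptor of a ubiquitin ligase, had 4.26, 5.55 and 13.6 CPM against 25.9, 28.2 and 19.9 CPM (log2 fold change 1.67). The wildtype libraries of both genes were far apart, with replicate 3 highest, and by the rule for naming them below every Nr6a1-/- library. The glycosyltransferase gene B4galt5 was tight, with 79.9, 71.1 and 77.9 CPM against 233, 224 and 195 CPM (log2 fold change 1.51). Gstk1, a mitochondrial and peroxisomal glutathione transferase, rose by 1.77 and Actc1, cardiac actin, by 1.54 on the log2 scale. At the level of single genes, 308 of the 342 genes that rose and 199 of the 249 that fell met the rule on level and separation from which these leading genes were drawn.

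The largest falls outside chromosome 8 were led by genes of endoderm. Sox17, the transcription factor of definitive and primitive endoderm (chr1:4490931-4497354), had 10.9, 16.1 and 15.6 CPM in the wildtype libraries and 2.67, 0 and 0.710 CPM in the Nr6a1-/- libraries. From 86 pooled counts in wildtype and 9 in Nr6a1-/- libraries it was 13.1-fold lower, with an exact 95% counting interval from 6.58 to 29.6 (log2 fold change -3.64 ± 0.50, FDR = 3.94e-06). Spink1, a protease inhibitor of endoderm, had 41.6, 45.9 and 42.2 CPM in the wildtype libraries and 5.71, 3.13 and 8.17 CPM in the Nr6a1-/- libraries (log2 fold change -2.92 ± 0.28, FDR = 3.23e-09). Every Nr6a1-/- library was below every wildtype library in both genes, as the rule for naming them required. The peptidase Dpp4, the endocytic adaptor Dab2 and the lysosomal protease Ctsh, all common in visceral endoderm, had log2 fold changes of -2.71, -2.48 and -2.20. Pth1r, the parathyroid hormone receptor of parietal endoderm, was lower by a log2 fold change of -1.86 and Tfpi, an inhibitor of coagulation, by one of -1.75. Stra8, a retinoic acid-induced gene, had 21.3, 22.2 and 21.6 CPM against 6.85, 4.17 and 5.33 CPM (log2 fold change -1.99). The non-coding Halr1, next to the Hoxa cluster, had a log2 fold change of -1.73 and Gm24336, a small nucleolar RNA, one of -1.99.

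Some feedback and effector genes of the Wnt pathway were higher in Nr6a1-/- cells. Of 25 Wnt targets tested, 8 were called higher, 1 lower and 16 not called, against 2.86% higher and 3.59% lower of all genes, and the list's median log2 fold change was 0.16, against 0.0019 over all genes. Axin2, the scaffold of the β-catenin destruction complex and a universal Wnt target (chr11:108920349-108950783), had 156, 112 and 129 CPM in the wildtype libraries and 199, 208 and 198 CPM in the Nr6a1-/- libraries (log2 fold change 0.61 ± 0.10, FDR = 1.23e-04). Sp5, a direct target that in turn restrains Wnt transcription, had 107, 107 and 113 CPM in the wildtype libraries and 182, 177 and 176 CPM in the Nr6a1-/- libraries (log2 fold change 0.71 ± 0.09, FDR = 1.84e-06). For Sp5 the 3 libraries of each genotype were almost equal, whereas wildtype Axin2 was spread. Sp8, a relative of Sp5, was spread further, with 52.0, 37.8 and 94.9 CPM against 122, 116 and 116 CPM (log2 fold change 0.94 ± 0.20, FDR = 0.00248). All 3 of the called TCF/LEF genes moved the same way, namely Lef1 (0.43), Tcf7 (0.60) and Tcf7l2 (0.68), as did Znrf3 (0.46), which removes Frizzled receptors. The gene called lower was Sfrp1 (-0.56), a secreted antagonist that lies on chromosome 8. Other targets gave no call, among them Ccnd1 (241, 221 and 228 CPM against 252, 239 and 267 CPM), Lgr5 (42.1, 56.0 and 61.8 CPM against 50.3, 59.1 and 47.2 CPM), Dkk1 (19.9, 20.2 and 22.6 CPM against 17.9, 20.2 and 23.1 CPM) and Nkd1 (69.0, 67.6 and 72.3 CPM against 63.6, 70.6 and 79.9 CPM). The count of higher genes in this list was 6 to 9 under the alternatives, and its median was 0.26 without Nr6a1-/- replicate 3 and 0.32 without wildtype replicate 2.

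Of 9 Wnt ligands tested Wnt5a was higher and Wnt6 lower, with 12.3, 19.2 and 11.1 CPM against 7.996, 7.99 and 7.81 CPM (log2 fold change -0.83 ± 0.22, FDR = 0.0167), a call that was lost under 7 alternatives (highest FDR 0.313). Wnt3, which starts the streak, had 8.51, 14.6 and 16.1 CPM against 18.7, 13.9 and 19.9 CPM, and Wnt8a had 9.93, 19.7 and 13.1 CPM against 16.8, 15.99 and 14.2 CPM, without a call. Wnt3a was at or below 1.51 CPM in all 6 libraries.

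Promoter sequence is shown for 3 called genes whose upstream bases hold the core letters recognised by TCF/LEF factors, 1 a Wnt target, 1 a chemokine gene that rose and 1 a gene that fell. Capitals mark CTTTGAT, or ATCAAAG on the other strand, and each run is the 250 bases before the RefSeq start (GRCm38.p6), 5′ to 3′ along the gene, all on the plus strand. The windows are chr2:70474673-70474922 for Sp5, chr6:117168285-117168534 for Cxcl12 and chr9:58129099-58129348 for Stra6.
Sp5: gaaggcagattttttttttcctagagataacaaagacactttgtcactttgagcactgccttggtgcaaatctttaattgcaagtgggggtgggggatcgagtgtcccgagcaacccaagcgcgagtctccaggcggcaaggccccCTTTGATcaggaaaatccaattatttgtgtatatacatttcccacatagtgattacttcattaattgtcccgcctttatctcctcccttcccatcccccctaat
Cxcl12: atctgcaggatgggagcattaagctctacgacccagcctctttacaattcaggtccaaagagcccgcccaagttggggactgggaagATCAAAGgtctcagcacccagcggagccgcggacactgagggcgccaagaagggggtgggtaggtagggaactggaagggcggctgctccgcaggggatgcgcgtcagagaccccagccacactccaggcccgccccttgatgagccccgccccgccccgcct
Stra6: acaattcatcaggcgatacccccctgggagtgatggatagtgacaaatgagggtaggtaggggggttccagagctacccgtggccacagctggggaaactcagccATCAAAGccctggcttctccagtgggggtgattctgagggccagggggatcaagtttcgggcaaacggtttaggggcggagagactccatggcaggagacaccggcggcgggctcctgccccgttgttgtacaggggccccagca
The letters lie 104, 163 and 145 bases before the start. They occur in 1053 of 32851 RefSeq promoter windows of this length (3.21%). RefSeq windows matched 8800 of the 12149 genes tested, under 80%, so a comparison of shares between called and other genes was void. Sp5 and Cxcl12 rose and Stra6 fell (-1.24), so the letters were found in genes of both directions.

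NMP and streak factors were higher in part. Of 19 tested, 8 were called higher and 1 lower, against 2.86% and 3.59% of all genes. The list's median was 0.25, or 0.38 without Nr6a1-/- replicate 3 and 0.46 without wildtype replicate 3. The caudal regulators Cdx1 and Cdx2, which position Hox expression along the axis, had 126, 116 and 108 CPM against 181, 166 and 151 CPM (log2 fold change 0.51 ± 0.12, FDR = 0.00537) and 60.5, 62.5 and 56.8 CPM against 94.0, 75.4 and 124 CPM (log2 fold change 0.71 ± 0.12, FDR = 2.28e-04). Nkx1-2, a marker of the caudal epiblast, had 103, 108 and 99.0 CPM against 152, 180.0 and 161 CPM (log2 fold change 0.67 ± 0.15, FDR = 0.00275). Gbx2, a homeobox gene of the posterior epiblast (chr1:89927956-89931179), rose most in the list, with 57.2, 48.4 and 51.7 CPM in the wildtype libraries and 148, 140.4 and 129 CPM in the Nr6a1-/- libraries (log2 fold change 1.40 ± 0.13, FDR = 9.60e-10). In none of these genes did the genotypes overlap. Mixl1, of the mesendoderm, had 56.3, 38.8 and 81.9 CPM against 115, 115 and 120.4 CPM (log2 fold change 0.99 ± 0.19, FDR = 9.38e-04), with wildtype libraries spread over about 2-fold. Fst, an inhibitor of activin, rose by 0.70 and Grsf1, an RNA-binding protein of the early embryo, by 0.43. The defining pair of NMPs gave no call, with 201, 178 and 190.4 CPM against 230.0, 237 and 208 CPM for T (log2 fold change 0.25 ± 0.10, FDR = 0.144) and 86.5, 83.7 and 93.9 CPM against 71.2, 95.9 and 81.0 CPM for Sox2 (log2 fold change -0.09 ± 0.13, FDR = 0.787). The gene that fell was Cyp26a1, which degrades retinoic acid. The summed raw CPM of 8 NMP markers was 612 to 643 in wildtype and 777 to 828 in Nr6a1-/- libraries. Of these markers Cdx1, Cdx2, Nkx1-2 and T were higher in each Nr6a1-/- library, whereas Sox2, Cdx4, Fgf8 and Wnt3a overlapped. Cdx4 had 20.7, 17.1 and 18.4 raw CPM against 16.1, 22.5 and 14.8 raw CPM, without a call. The markers of later mesoderm remained low in both genotypes, with Msgn1 at 0 in all 6 libraries.

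Genes that report FGF and ERK activity followed the same direction where they were called. Of 26 genes 4 rose, against 2.86% of all genes, and 4 were called by DESeq2. The list's median of 0.04 changed sign to -0.046 without wildtype replicate 1 and to -0.0038 without wildtype replicate 2. Dusp6, the ERK phosphatase induced by FGF, had 74.2, 40.9 and 101 CPM in the wildtype libraries and 168, 125 and 138 CPM in the Nr6a1-/- libraries (log2 fold change 0.99 ± 0.25, FDR = 0.0116). Spred1, a feedback inhibitor, had 72.4, 55.0 and 77.9 CPM against 107, 107 and 93.4 CPM, and the ETS factors Etv4 and Etv5 had 18.9, 22.2 and 23.6 CPM against 36.2, 39.6 and 24.1 CPM and 39.3, 35.3 and 42.2 CPM against 60.9, 59.1 and 62.1 CPM. Their log2 fold changes were 0.58, 0.63 and 0.64. In Dusp6 wildtype replicate 2 was lowest and replicate 3 highest, and its call was lost without Nr6a1-/- replicate 1 or wildtype replicate 2. The Etv4 call was weaker and held under 8 of 14 alternatives (highest FDR 0.265). It was lost with the compared libraries only, after thinning, and without replicate 1 or 2 of either genotype. The Etv5 call was lost after thinning. The ligand Fgf8 had 35.0, 34.3 and 31.6 CPM against 35.0, 27.8 and 23.1 CPM, without a call. Without 1 library at a time or under other settings, 1 to 5 genes of the list rose.

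Pluripotency genes moved both ways. Of 35 tested, 7 were higher and 10 lower, against 2.86% and 3.59% of all genes, and the median was -0.25. Outside chromosome 8 the list had 7 higher and 8 lower and a median of -0.095. Without Nr6a1-/- replicate 3 it had 6 higher and 6 lower, and its median changed sign to 0.018. Genes of the naive state and of germ cells were among the lower, namely Zfp42, Klf2 (-0.82), Klf4 (-1.35), Dppa4 (-0.91), Dppa5a (-0.88) and Dnmt3l (-1.11), the partner of the de novo DNA methyltransferases. Zfp42 and Klf2 lie on chromosome 8. Dppa5a had 233, 269 and 227 CPM in the wildtype libraries and 139.7, 133 and 124 CPM in the Nr6a1-/- libraries (log2 fold change -0.88 ± 0.11, FDR = 8.09e-07). Pou5f1, which encodes Oct4, was among the higher with 13.7, 14.6 and 14.1 CPM in the wildtype libraries and 25.5, 20.9 and 28.4 CPM in the Nr6a1-/- libraries (log2 fold change 0.82 ± 0.23, FDR = 0.0264). Sall4, which maintains progenitors together with Oct4, had 559, 475 and 552 CPM in the wildtype libraries and 948, 808 and 756 CPM in the Nr6a1-/- libraries (log2 fold change 0.66 ± 0.12, FDR = 1.78e-04). Both were separate between the genotypes, although the Pou5f1 call was lost without any of 5 libraries in turn (highest FDR 0.162). Zic2 (0.94), Lin28a (0.38), the threonine dehydrogenase Tdh (0.42) and Etv4 were also higher. The Nodal-pathway genes Lefty1, Lefty2 and Gdf3 and the neuropeptide gene Trh were lower. Nanog had 45.9, 50.4 and 65.3 CPM against 59.8, 56.0 and 78.8 CPM and gave no call. The summed raw CPM of 5 naive ESC markers was 98.3 to 105 in wildtype and 61.2 to 74.3 in Nr6a1-/- libraries, and that of 7 epiblast markers was 717 to 732 and 827 to 908. Most of the epiblast sum was Dnmt3b, with 434 to 472 and 597 to 657 raw CPM, which was not called. Of the other epiblast markers, Utf1 and Tdgf1 were lower in each Nr6a1-/- library, Pou5f1 and Pou3f1 were higher, and Fgf5 and Otx2 overlapped.

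Endoderm genes were the list most often lower. Of 25 tested, 12 were called lower and 1 higher, against 3.59% and 2.86% of all genes, with a median of -0.84. Besides Sox17, Spink1, Dpp4 and Dab2, the lower genes included the transcription factor genes Foxa2 and Gata6, the keratins Krt8 and Krt18, the scavenger receptor pair Amn and Cubn, and Ttr, which carries thyroid hormone and retinol. Foxa2 had 0.946, 2.02 and 4.02 CPM against 0, 0.348 and 0.710 CPM and Gata6 4.73, 2.02 and 3.52 CPM against 0, 0.348 and 1.42 CPM. From 14 and 3 pooled counts Foxa2 was 6.39-fold lower with a counting interval of 1.78 to 34.7, so its size is uncertain, and the calls of Foxa2 and Gata6 were lost under several alternatives (highest FDRs 0.22 and 0.272). The Amn call held under 7 of 14 alternatives (highest FDR 0.199) and that of Cubn under 13. In this list 14 of the 25 genes were under 10 CPM in both groups. Krt18 was more abundant and fell by less, with 88.4, 91.8 and 89.4 CPM against 77.7, 52.1 and 62.9 CPM (log2 fold change -0.49 ± 0.11, FDR = 0.00322). The gene called higher, Gsc, marks the organiser and had at most 4.17 CPM. Epcam, an epithelial gene also active in epiblast, had 370.3, 348 and 418 CPM against 567, 526 and 511 CPM without a call (log2 fold change 0.50 ± 0.17, FDR = 0.0705). It was called under 4 of 14 alternatives, with FDRs from 6.06e-06 to 0.24. The summed raw CPM of 5 definitive endoderm markers was 16.8 to 24.1 in wildtype and 0.714 to 3.06 in Nr6a1-/- libraries, with Cer1 at 0 in all 6, and that of 5 extraembryonic endoderm markers was 22.5 to 24.98 and 5.43 to 9.28. In bulk RNA, fewer cells of a type and less RNA per cell cannot be told apart. Between 7 and 12 of the list fell under the alternatives, and its median was -0.56 without Nr6a1-/- replicate 3.

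Some genes of the basement membrane, which endoderm secretes in quantity, were also lower. Of 18 tested 6 fell, against 3.59% of all genes, and 12 were not called, with a median of -0.35. The laminin chain gene Lama1 had 55.8, 55.5 and 54.7 CPM in the wildtype libraries and 9.90, 7.99 and 8.88 CPM in the Nr6a1-/- libraries, 6.19-fold lower (log2 fold change -2.63 ± 0.18, FDR = 1.18e-12). Its partners fell less, Lamb1 with 158, 129.6 and 97.4 CPM against 72.0, 67.1 and 72.8 CPM (log2 fold change -0.86) and Lamc1 with 42.1, 40.9 and 33.7 CPM against 23.2, 22.6 and 19.2 CPM (-0.84). Sparc, which binds collagen, had 273, 225 and 242 CPM against 115, 105 and 91.3 CPM (log2 fold change -1.25 ± 0.11, FDR = 4.84e-10). The collagen pair of chromosome 8 completed the 6, and the median of the list was -0.14 without chromosome 8 and -0.16 without wildtype replicate 2. The part of endoderm cells in this difference was not tested. Markers of the feeder fibroblasts on which the ESCs were kept before feeder depletion were low, with a sum of 22.5 to 29.3 raw CPM in wildtype and 33.3 to 36.2 in Nr6a1-/- libraries and Lum at 0. Of 13 fibroblast genes tested Tagln alone was called (0.99), and their median was 0.33.

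Retinoid-binding proteins differed in opposite directions. Crabp1, a cytoplasmic carrier of retinoic acid (chr9:54764748-54773110), had 109, 102 and 97.9 CPM in the wildtype libraries and 25.5, 20.9 and 20.2 CPM in the Nr6a1-/- libraries, 4.64-fold lower (log2 fold change -2.21 ± 0.12, FDR = 1.81e-15). Crabp2, the carrier that delivers retinoic acid to its receptor, had 23.2, 20.7 and 19.1 CPM in the wildtype libraries and 62.8, 66.4 and 54.0 CPM in the Nr6a1-/- libraries, 2.90-fold higher (log2 fold change 1.54 ± 0.16, FDR = 2.49e-08). The genotypes were well apart for both genes, separation being part of the rule that named them. The retinol uptake receptor gene Stra6 fell, with 12.3, 11.1 and 15.1 CPM against 3.81, 6.95 and 5.33 CPM (log2 fold change -1.24 ± 0.27, FDR = 0.00280), as did Rbp4, the plasma carrier, with 8.51, 2.02 and 4.52 CPM against 0.762, 2.09 and 0 CPM (log2 fold change -2.34 ± 0.66, FDR = 0.0246). Cyp26a1 had 24 pooled counts in wildtype and 1 in Nr6a1-/- libraries, 32.9-fold lower with a counting interval of 5.36 to 1352. Of 14 genes of the pathway 2 rose and 4 fell, against 2.86% and 3.59% of all genes. The call of Rbp4 was lost without Nr6a1-/- replicate 1 or 3 or wildtype replicate 1.

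Most Hox genes were low at this time, and 7 were called. Hoxb1, the first gene of its cluster to be activated, had 66.7, 61.5 and 66.3 CPM in the wildtype libraries and 100.1, 103 and 113 CPM in the Nr6a1-/- libraries (log2 fold change 0.70 ± 0.12, FDR = 9.96e-05). Hoxa5 had 8.99, 6.05 and 6.53 CPM against 2.28, 4.52 and 2.49 CPM (log2 fold change -1.20 ± 0.32, FDR = 0.0173). Of 13 anterior Hox genes (groups 1 to 5) 2 rose and 1 fell, against 2.86% and 3.59% of all genes. Of 11 trunk Hox genes (groups 6 to 9) 3 fell, with a median of -1.29, and all 11 were under 10 CPM in both groups. They passed the filter through libraries of other stages, so that none could be tested with the 6 libraries alone, and the median was -2.05 without Nr6a1-/- replicate 3. The lower genes were Hoxc8, Hoxc9 and Hoxb9, which had at most 4.73 CPM in wildtype and 1.07 CPM in Nr6a1-/- libraries. Of 10 posterior Hox genes (groups 10 to 13) 1 was called. Hoxb13, the last gene of its cluster, had 0, 0.504 and 0 CPM in the wildtype libraries and 8.76, 5.91 and 6.04 CPM in the Nr6a1-/- libraries. Its 1 pooled count in wildtype and 57 in Nr6a1-/- libraries gave 41.6-fold, with a counting interval of 7.18 to 1672. The calls of Hoxa5, Hoxb9, Hoxc8 and Hoxc9 were each lost under at least 1 alternative, with highest FDRs of 0.159, 0.128, 0.169 and 0.069. 

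TGF-β signalling genes moved both ways, with 4 of 24 higher and 5 lower, against 2.86% and 3.59% of all genes. The receptor gene Acvr2b rose, with 146, 119.5 and 171 CPM against 284, 231 and 273 CPM (log2 fold change 0.85 ± 0.14, FDR = 5.00e-05). Id1 and Id3, both BMP targets, parted, with 11.3, 7.06 and 8.04 CPM against 0.762, 2.43 and 2.49 CPM for Id1 (log2 fold change -2.18 ± 0.42, FDR = 7.72e-04) and 45.4, 55.0 and 57.3 CPM against 83.0, 71.9 and 79.2 CPM for Id3 (log2 fold change 0.57 ± 0.16, FDR = 0.0209). Lefty1, a Nodal antagonist, had 55.8, 66.6 and 63.3 CPM against 37.7, 38.6 and 37.6 CPM (log2 fold change -0.70 ± 0.13, FDR = 2.46e-04), and Lefty2 had a log2 fold change of -1.06. Of the other signalling list, chemokine and apelin genes, Cxcl12 and Apela were 2 of 6 that were higher.

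Of 26 cadherin and epithelial-mesenchymal transition genes 4 were called, against 6.45% of all genes. The 3 that rose were Snai1, which had 0.946, 2.02 and 3.52 CPM against 4.57, 10.1 and 5.33 CPM (log2 fold change 1.63 ± 0.44, FDR = 0.0188), the intermediate filament gene Vim (0.36) and the epithelial factor Grhl2 (1.09), and Itgb1 on chromosome 8 fell (-0.41). In paraxial mesoderm and clock genes 1 of 22 rose, Snai1 again, and 2 fell, the Notch effector Hes1 (-0.37) and the transcriptional regulator Cited1 (73.8, 50.4 and 58.8 CPM against 22.8, 23.3 and 25.6 CPM, log2 fold change -1.35 ± 0.15, FDR = 7.91e-08). Of these 22 genes 19 were under 10 CPM in both groups. With the 6 libraries alone 8 of them could be tested, of which 0 rose and 2 fell. Without wildtype replicate 2 the list likewise had 0 higher. Of 15 neural progenitor genes Nes alone was called, 65.7, 66.6 and 73.3 CPM against 131, 132 and 118 CPM (log2 fold change 0.89 ± 0.15, FDR = 1.28e-04), and the list's median was -0.61, or -0.17 without its 3 genes of chromosome 8 and -0.25 without wildtype replicate 1. At an unadjusted p under 0.05 in edgeR 1 gene of this list was higher and 7 lower, and 10 were under 10 CPM in both groups. The summed raw CPM of 4 neural progenitor markers was 18.1 to 19.2 in wildtype and 10.3 to 15.4 in Nr6a1-/- libraries. Sox1, Pax6 and Irx3 were lower in each Nr6a1-/- library, and Hes3 overlapped. Sox1 and Irx3 lie on chromosome 8. Embryonic globin Hbb-bh1 was the single call of 9 lateral mesoderm and blood genes, with 0.473, 1.01 and 0.502 CPM against 1.52, 10.4 and 5.68 CPM.

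Among lists of cell physiology, the hypoxia-response genes Pdk1 (106, 104 and 117 CPM against 60.2, 59.4 and 60.0 CPM, log2 fold change -0.86 ± 0.11, FDR = 2.52e-06), Vegfa, Slc2a1, P4ha1 and P4ha2 were lower and the glycolytic genes Hk2 (0.41) and Eno1 (0.32) higher. Of the 30 glycolysis and hypoxia genes 5 fell, 2 rose and 23 were not called, with a median of 0.0041. Over all genes 2.86% were called higher and 3.59% lower. Of 26 p53 targets 5 fell, but 2 did so without Nr6a1-/- replicate 1 or 3 or wildtype replicate 1 or 2 in turn. Thinning the counts also left 2. The list's median of -0.13 was -0.22 without wildtype replicate 1 and -0.079 without wildtype replicate 3. Sesn2, a stress sensor, had 87.5, 97.3 and 71.8 CPM against 48.0, 58.7 and 46.9 CPM (log2 fold change -0.74 ± 0.16, FDR = 0.00275). Ckap2, 1 of the 5, lies on chromosome 8. Imprinted genes included 6 of 37 lower, among them the maternal RNAs H19 (11.3, 5.04 and 4.02 CPM against 1.14, 2.09 and 0.710 CPM, log2 fold change -2.34 ± 0.39, FDR = 8.86e-05) and Meg3 (6.62, 6.56 and 4.52 CPM against 1.52, 0.695 and 0.355 CPM, log2 fold change -2.74 ± 0.58, FDR = 0.00214), and 4 higher, Peg3 (297, 312 and 270.2 CPM against 372, 373 and 434 CPM, log2 fold change 0.42 ± 0.10, FDR = 0.00432), Usp29, Snrpn and Zdbf2, all paternally expressed. Rian, a non-coding RNA neighbouring Meg3, was at 0 in all Nr6a1-/- libraries and was at least 6.39-fold lower, against 3 counts over that group. In sterol synthesis 2 of 24 rose, among them Hmgcs1 (0.33), and 3 fell, of which Mvd and Msmo1 lie on chromosome 8.

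Replication and cell cycle genes had 2 calls among 35, against 6.45% of all genes called. Both were of chromosome 8, Mcm5 (-0.40) and Cdt1 (-0.78), and both were lower, while 2 genes of the list were higher and 3 lower at an unadjusted p under 0.05 in edgeR and DESeq2 called 2. Of 27 genes of DNA methylation and Polycomb repression Tet3 (0.71) and Rbbp7 (0.31) rose and Dnmt3l and Eed (-0.34) fell, while Dnmt3b had 464, 459.9 and 426 CPM against 594, 639.8 and 592 CPM (log2 fold change 0.44 ± 0.32, FDR = 0.491). The genotypes did not overlap for Dnmt3b, and it was called under 2 of 14 alternatives, with FDRs from 2.99e-05 to 0.702. The Eed call held under 6 of 14 alternatives (highest FDR 0.204). Lin28a was the single call of 11 heterochronic genes, 208, 171 and 199.9 CPM against 253, 265 and 238 CPM (log2 fold change 0.38 ± 0.09, FDR = 0.00592). None of 20 nuclear receptors tested by edgeR was called, with 1 higher and 3 lower at an unadjusted p under 0.05 and 0 called by DESeq2, and Nr2f2 came nearest (2.36, 2.52 and 3.01 CPM against 0.381, 0.695 and 0.710 CPM, log2 fold change -2.04 ± 0.68, FDR = 0.0651).

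**Figure D3:**
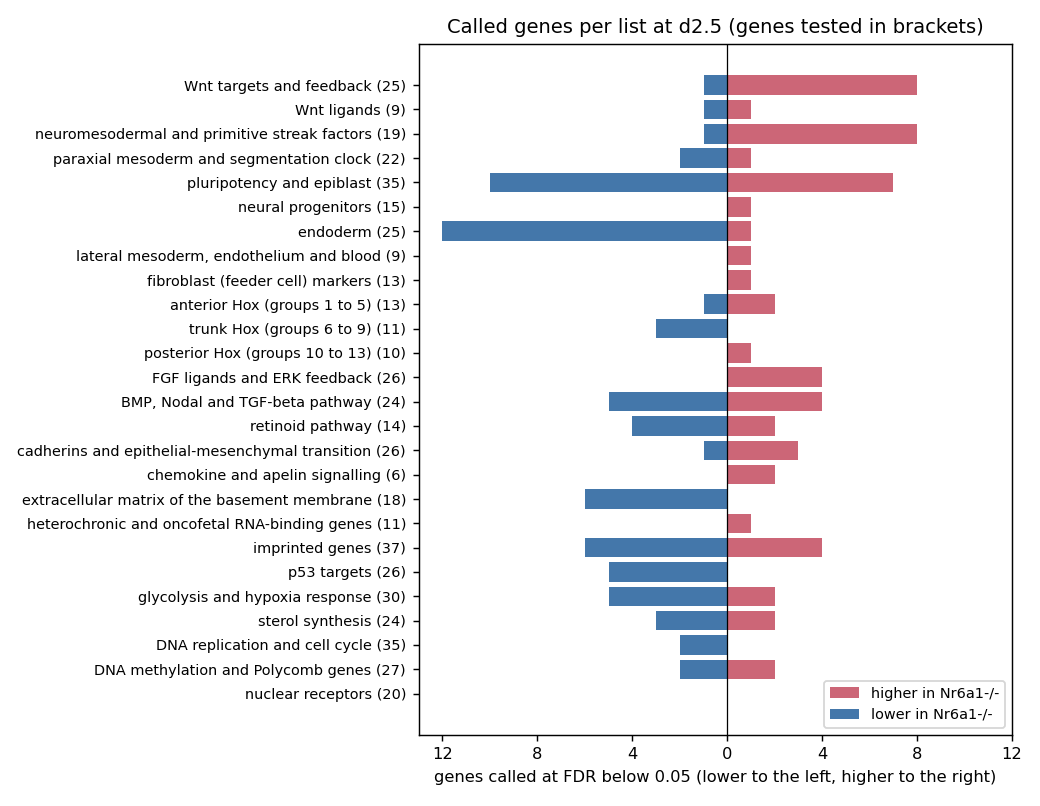
Number of genes called higher (right of 0) and lower (left of 0) in Nr6a1-/- cells at d2.5 in each of 26 gene lists, with the number tested in brackets. The largest bars were 12 lower in endoderm, 10 lower in pluripotency and epiblast, and 8 higher each in Wnt targets and in neuromesodermal and streak factors. Over all genes tested 2.86% were called higher and 3.59% lower.

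The genotype difference at d2.5 was next compared with that at d2, before CHIR, by testing the change of the difference. Of 12149 genes 74 (0.609%) were called, 53 with a change towards higher in Nr6a1-/- cells and 21 towards lower, and 2 of them were on chromosome 8. Several developmental genes reversed. Axin2 had 10.4, 11.1 and 9.56 CPM against 3.27, 3.35 and 3.39 CPM at d2, lower in Nr6a1-/- cells, and was higher at d2.5 (change 2.21 ± 0.29, FDR = 1.62e-05). Gbx2 had 47.7, 47.5 and 33.8 CPM against 15.0, 14.5 and 17.3 CPM at d2 and a change of 2.84 ± 0.21, FDR = 2.65e-11. Meis2, a partner of Hox proteins, had 10.8, 7.38 and 8.54 CPM against 1.87, 2.60 and 3.01 CPM at d2 and 17.0, 13.6 and 25.1 CPM against 29.7, 26.4 and 31.6 CPM at d2.5, a change of 2.46 ± 0.38, FDR = 2.16e-04. Each of these 3 genes was called in the opposite direction at d2, and the d2.5 call of Meis2 was lost under 5 alternatives (highest FDR 0.185). Hotairm1, a non-coding RNA of the Hoxa cluster that could share reads with genes of the other strand if counting ignored strand, changed by 3.42 ± 0.59, FDR = 0.00126, and Porcn, which lipidates Wnt ligands, by 2.43 ± 0.57, FDR = 0.0332, without a call of either at d2.5 alone.

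The changes towards lower were led by Crabp1, which stood at 23.0, 26.4 and 20.5 CPM against 19.6, 18.96 and 23.3 CPM at d2 with overlapping genotypes and parted by d2.5, giving a change of -2.06 ± 0.20, FDR = 1.50e-08. Gpx2, a glutathione peroxidase of endoderm, stood at 18.7, 24.3 and 19.1 CPM against 22.9, 18.6 and 19.2 CPM at d2 and 27.0, 23.7 and 26.1 CPM against 6.09, 7.99 and 11.4 CPM at d2.5, a change of -1.56 ± 0.30, FDR = 0.00564. Lgals3 (a galectin), Flt1 (a VEGF receptor) and Atp1b1 (a sodium pump subunit) changed by -1.72, -1.48 and -1.36 on the log2 scale. The count of 74 changed with the libraries used. It was 212 when wildtype replicate 3 at d2.5 was left out. It was 30 and 44 with wildtype replicate 2 or 1 of d2.5 left out and 42 with Nr6a1-/- replicate 3 of d2.5 left out. At d2, omitting Nr6a1-/- replicate 1 or 2 gave 41 or 26, and omitting wildtype replicate 3 gave 34.

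**Figure D4:**
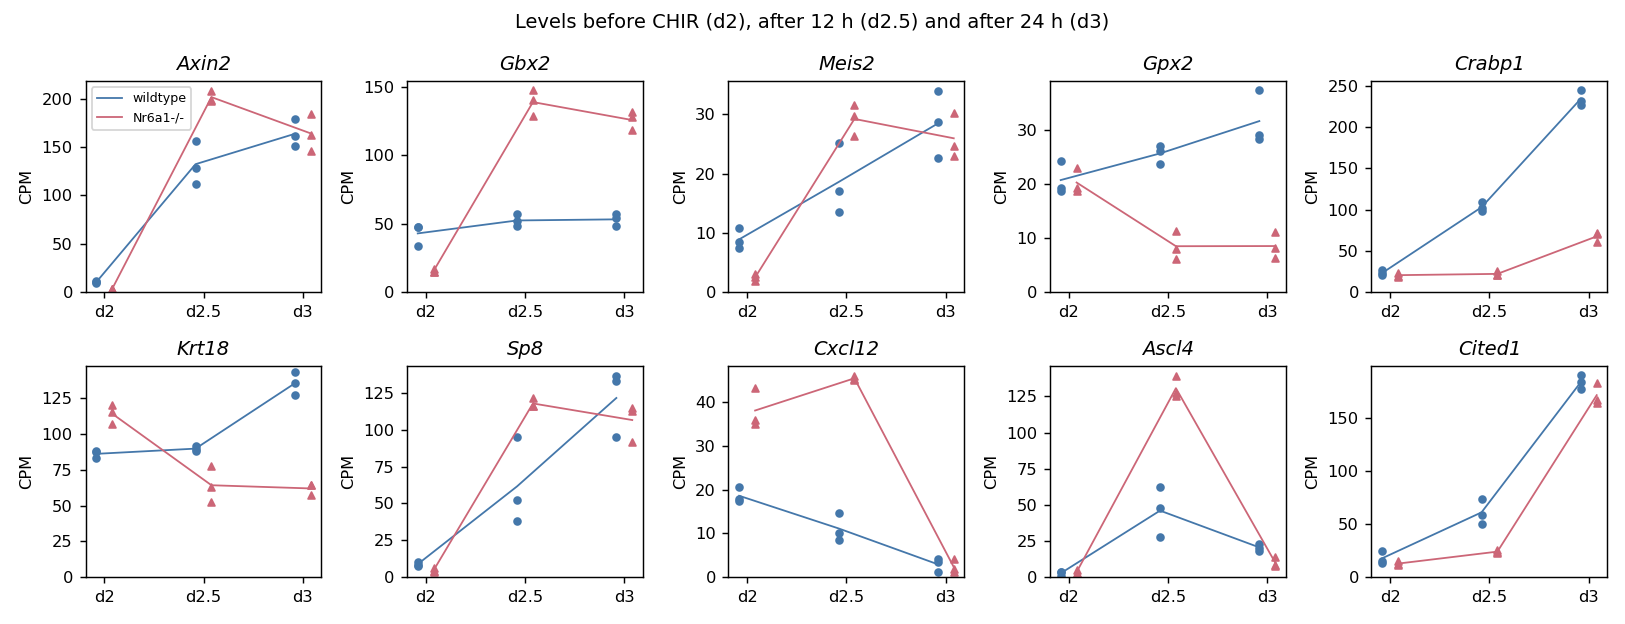
CPM of 10 genes in each library at d2, d2.5 and d3, with circles for wildtype, triangles for Nr6a1-/- and lines through the means of 3 libraries. Axin2, Gbx2 and Meis2 were lower in Nr6a1-/- cells at d2 and higher at d2.5, Crabp1 parted after d2, and Cxcl12 differed at d2.5 and lay close together at d3.

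From d2.5 to d3 the difference changed in 98 genes (0.807%), 45 towards higher and 53 towards lower, with 5 on chromosome 8. These changes and those from d2 share the d2.5 libraries. Part of the Wnt response drew level, since Axin2 had 179, 151 and 161 CPM against 145, 162 and 184 CPM at d3 (change -0.60 ± 0.14, FDR = 0.0338) and Sp8 94.9, 133 and 137 CPM against 92.1, 113 and 115 CPM (change -1.13 ± 0.28, FDR = 0.0365). Cxcl12 was down to 3.35, 4.11 and 1.19 CPM against 3.99, 1.70 and 1.11 CPM (change -2.33 ± 0.58, FDR = 0.0405), and Ascl4 had turned lower in Nr6a1-/- cells with 18.2, 20.1 and 23.0 CPM against 7.57, 8.49 and 13.7 CPM (change -2.54 ± 0.41, FDR = 4.54e-04). Lix1, Car4 (a carbonic anhydrase) and Rbm47 (an RNA-binding protein) also changed towards lower, by -2.72, -2.68 and -2.51. In the other direction, Cyp26a1 reached 18.2, 17.8 and 19.9 CPM against 9.96, 8.92 and 7.75 CPM (change 3.47 ± 0.88, FDR = 0.0466) and Hoxb9 32.6, 29.2 and 31.8 CPM against 28.3, 36.9 and 41.4 CPM (change 2.37 ± 0.61, FDR = 0.0491), so that the gap of each at d2.5 narrowed on the log2 scale. Cyp26a1 was still lower in each Nr6a1-/- library at d3, whereas the genotypes overlapped for Hoxb9. Kitl, the ligand of Kit, passed from 4.73, 2.52 and 4.02 CPM against 0.381, 1.39 and 0.710 CPM to 16.3, 14.2 and 13.1 CPM against 25.9, 27.6 and 27.0 CPM (change 2.99 ± 0.51, FDR = 7.95e-04), and Aldh1a2, which makes retinoic acid, and Fam212a changed by 2.35 and 2.36. The count of 98 was 250 when wildtype replicate 3 at d2.5 was left out. It fell to 47 and 53 with wildtype replicate 1 or 2 of d2.5 omitted, to 63 and 59 with Nr6a1-/- replicate 1 or 3 of d2.5 omitted, and to 48, 60 and 65 with wildtype replicate 3, Nr6a1-/- replicate 1 or Nr6a1-/- replicate 2 of d3 omitted.

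At d2 494 of the 12149 genes were called (4.07%) and at d3 1309 (10.8%). Outside chromosome 8, 114 of the 591 genes called at d2.5 were called in the same direction at d2, which is 19.3% of the d2.5 calls and 33.7% of the d2 calls, and 251 at d3, which is 42.5% and 22.9%. On chromosome 8 the numbers were 88 and 112 of 186. Outside it 280 genes were called at d2.5 alone of the 3 stages, 197 of them higher, and whether their difference was larger at d2.5 than at the other stages was tested only by the changes above. At any of the other stages 23 genes were called in the opposite direction. They included Krt18, with 87.2, 83.3 and 88.1 CPM against 115, 120.4 and 107 CPM at d2 and a change of -0.89 ± 0.15, FDR = 7.16e-04.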

How the data were processed

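RNA was measured in 30 libraries, 3 in each of 10 groups (2 genotypes at 5 stages), grouped by their labels. Per the study's methods, libraries were primed at the 3′ end with molecular identifiers and the authors aligned reads with STAR to mm10. The version of STAR, how reads were counted, strand handling and collapsing of identifiers are not given in the sources used here, so intervals cover counting error only. The deposited table holds raw counts per gene, and 0 of its columns remained unmatched. Tables of the authors' own comparisons, with fold changes and p-values, were not used. Totals of the 6 libraries ran from 1935182 to 2801158, and a count of 0 allows 3 counts, 1.07 to 1.55 CPM.

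A gene entered when 2 libraries of any group exceeded both 10 counts and 2 CPM, which kept 12149 of 54134, and of these 99.0% were placed on GENCODE vM21 (GRCm38). After TMM scaling, edgeR 4.0.16 under R 4.3.3 fitted all 10 groups together, leaving 20 residual degrees of freedom. Genotype differences and their change between stages were tested with glmQLFTest, two-sided, at an FDR of 0.05. SEs were derived from the F statistic and the fold change. Ratios from pooled counts have exact 95% intervals. Shares of chromosomes were compared by exact permutation. The fit was tested on simulated data.

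Genes named were Nr6a1 and Nr6a1os, the 12 largest rises and falls outside chromosome 8, and the 5 largest rises and 8 largest falls on it, among called genes with a mean of 10 CPM in 1 group and all 3 libraries separate, where only 3 rises on chromosome 8 met this. The 5 largest changes in each direction between stages (10 CPM in 1 group) and members of 26 lists and the marker lists were also named, except a few that are not reported here. Gene lists, markers and comparisons were chosen with earlier results of these data known. Alternatives were RLE or no factors, factors without chromosome 8, no filter, the compared libraries only, DESeq2 1.42.0, thinning to 1570714 counts, a replicate block, adjustment outside chromosome 8 alone, chromosome 8 against its own median, and leaving out each library.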

Additional observations from a re-analysis of the deposited data

Results flagged for a closer look

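Genes are given here because their genotype difference, Nr6a1-/- over wildtype, changed between stages by the test of that change (edgeR, FDR below 0.05) and because they were named by rule or belong to a list. Values are log2 changes of the difference, and both sets of changes rest on the same d2.5 libraries.

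From d2 to d2.5 the change was positive for Hotairm1 (3.42), Gbx2 (2.84), Meis2 (2.46), Porcn (2.43), Axin2 (2.21), Epha4 (1.93), Lzts1 (1.74), Dusp6 (1.62), B4galt5 (1.62), Tcf7l2 (0.95), Acvr2b (0.88) and Tdh (0.79). Lzts1 is the 1 gene of chromosome 8 among them. The change was negative for Crabp1 (-2.06), Lgals3 (-1.72), Gpx2 (-1.56), Flt1 (-1.48), Atp1b1 (-1.36), Car4 (-1.31), Krt8 (-0.95), Krt18 (-0.89), Sparc (-0.83) and Dppa4 (-0.75).

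From d2.5 to d3 the change was positive for Cyp26a1 (3.47), Kitl (2.99), Hoxb9 (2.37), Fam212a (2.36), Aldh1a2 (2.35), Vegfa (2.34), Lefty2 (1.76), Hoxa5 (1.49), Cited1 (1.25), Phlda2 (1.12) and Lefty1 (0.84). It was negative for Lix1 (-2.72), Car4 (-2.68), Ascl4 (-2.54), Rbm47 (-2.51), Cxcl12 (-2.33), Trh (-1.41), Sp8 (-1.13), Crabp2 (-0.93), Krt18 (-0.64) and Axin2 (-0.60). Axin2 rose and fell back between the genotypes, whereas Car4 and Krt18 moved towards lower at both steps.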

How the results depend on the processing

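Under the alternatives with all libraries, the number of genes called at d2.5 was 459 to 834 over all genes, 339 to 682 outside chromosome 8 and 40 to 198 on it. Thinning gave 459, 339 and 118, 57 for the change from d2 and 50 for the change to d3. Chromosome 8 against its own median gave 40 calls and a median of -0.0016, as its construction sets. The chromosome 8 median was -0.403 with factors from other genes, -0.21 without a filter and -0.37 after thinning. Changes between stages numbered 317 and 359 without a filter, and 121 and 181 with the compared libraries only. Without a filter the share of higher calls rose from 44.4% to 58.0%. With 1 library left out, calls ranged from 478 to 775 (all genes), 345 to 609 (outside chromosome 8), 131 to 160 (chromosome 8, median -0.392 to -0.369), 26 to 212 (change from d2) and 47 to 250 (change to d3). The causes were not tested.

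Same-numbered libraries of the genotypes correlated by -0.017, 0.162 and 0.034 at d2.5, and only replicate 2 matched its own number best. A pairing by number was therefore not shown, and 3 libraries per group cannot exclude it. The replicate block gave 698 calls at d2.5, 528 outside chromosome 8 and 165 on it with a median of -0.383, and 95 and 104 changes between stages. Of 144 listed or named genes called at d2.5, 74 were called under each of the alternatives that tested them, 39 were lost after thinning, 9 with DESeq2 and 16 to 37 without 1 library, and 0 changed sign. Depth limits genes under 10 CPM.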

Other observations

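Genes of the X chromosome leaned the other way from those of chromosome 8. The median log2 fold change of 435 X-linked genes was 0.106, 34.9% were below 0, and 22 of the 28 called were higher. The X chromosome took 2.67%, 2.67% and 2.66% of counts in wildtype and 2.84%, 2.86% and 2.89% in Nr6a1-/- libraries at d2.5, with an exact permutation p of 0.1, two-sided, the smallest possible. At d2 the median was 0.033 and at d3 0.073.

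Some genes outside the lists were called in opposite directions at neighbouring stages, and were chosen after their values were seen. Prtg, a receptor of the early neural plate, had a log2 fold change of -0.81 at d2 and 0.34 at d2.5, and Tmem47, a junction protein, -0.60 and 0.57. Slc7a1, a transporter of basic amino acids, was lower at d2.5 (-0.78) and higher at d3 (0.85). Lpar1, a receptor for lysophosphatidic acid, was higher at d2.5 (0.76) and lower at d3 (-0.72), as was the cell adhesion gene Cadm1 (0.45 and -0.42).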
